A study of Mus musculus with 24 samples.

Results

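A set of 10 genes of the integrated stress response was followed across all 24 libraries of a mouse study: the secreted factors Fgf21 and Gdf15, the transcription factors Atf4, Atf3 and Ddit3, the pseudokinase Trib3, the glutathione-degrading enzyme Chac1, the leucine sensor Sesn2, and the amino acid enzymes Asns and Psat1. They were picked by gene symbol from the deposited expression table, which holds 54532 genes. The 10 symbols stand on 11 lines of it, because Ddit3 has a second identifier, ENSMUSG00000116429, which was at 0 in every library. The study compared Mrs2 knockout (KO) with wild-type (WT) mice on a Western diet (WD), an obesogenic diet, and on chow, to ask how magnesium uptake into mitochondria shapes metabolism. Mrs2 encodes the channel through which magnesium enters the mitochondrial matrix. Diets began at 13 weeks of age and ran for 52 weeks. RNA came from whole liver and from inguinal white adipose tissue (iWAT) whose lymph nodes had been removed. The 8 groups of 3 mice were KO on WD, WT on WD, KO on chow and WT on chow in liver, and the same 4 in iWAT. The sources used here give neither the strain nor the sex nor how Mrs2 was disrupted. The labels do not tie a liver to an iWAT sample of the same mouse.

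The integrated stress response begins when a kinase phosphorylates the translation factor eIF2α. GCN2 (gene Eif2ak4) responds to amino acid shortage, PERK (Eif2ak3) to stress of the endoplasmic reticulum, PKR (Eif2ak2) to double-stranded RNA, and HRI (Eif2ak1) to heme shortage and to signals from stressed mitochondria. Protein synthesis then slows while Atf4 mRNA is translated more, so that Atf4 mRNA alone does not report ATF4 activity. ATF4 pairs with C/EBP proteins and induces CHOP (gene Ddit3), ATF3, TRIB3 and genes of amino acid supply. FGF21 and GDF15 are hormones that are released under mitochondrial or nutrient stress. FGF21 acts through FGFR1 with its co-receptor β-Klotho (gene Klb), is made mainly by liver, and is also a target of the fatty acid sensor PPARα. GDF15 acts through GFRAL with RET in the hindbrain.

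Levels are FPKM, fragments per gene length and sequencing depth, which allow levels to be set against each other per gene length. Tests are limma fits on log2(FPKM + 1) within a tissue, with p-values adjusted by Benjamini-Hochberg over all genes whose mean was at least 0.5 FPKM, and a gene is said to have risen or fallen where its adjusted p is under 0.05. These log2 differences understate changes of genes near or below 1 FPKM. Errors of levels are SD and errors of log2 differences are SE, with n = 3 mice a group. In bulk tissue, fewer cells of a type and less RNA per cell cannot be told apart. Psat1 did not reach the minimum in liver, which left 9 of the 10 genes for the liver tests.

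Libraries held 14717613 to 19538975 reads in liver and 15358324 to 20354594 in iWAT. Mrs2 measured 4.10, 5.21 and 4.21 FPKM in KO livers on WD, against 5.10, 4.10 and 5.11 FPKM in WT livers on WD. On chow it was 3.90, 4.47 and 4.16 FPKM in KO livers, against 6.26, 5.87 and 6.50 FPKM in WT livers. The genotypes separated in livers on chow and overlapped in livers on WD, so directions on WD refer to livers labelled KO and labelled WT. In iWAT, Mrs2 ranged from 1.60 to 2.25 FPKM in KO samples and from 2.74 to 5.01 FPKM in WT samples. Hepatocyte markers summed to 24675 to 79493 FPKM in liver and 25.6 to 1041 FPKM in iWAT, where the sum is mostly Cyp2e1. Adipocyte markers summed to 12.1 to 68.2 FPKM in liver and 3850 to 6139 FPKM in iWAT. Markers of pancreatic acinar cells stood at 2113 FPKM in liver 1 of KO on chow and 1630 FPKM in liver 2 of WT on WD, against 5.67 to 24.5 FPKM in the other livers. Skeletal muscle markers reached 1125 FPKM in iWAT 1 of KO on WD and 3896 FPKM in iWAT 1 of WT on WD, against 3.66 to 283 FPKM in the other iWAT samples. Red cell markers summed to 211 to 1172 FPKM in liver and 691 to 7726 FPKM in iWAT, and lymphocyte markers to 12.8 to 219 FPKM in liver and 144 to 1038 FPKM in iWAT.

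The promoters are shown first because 5 of the 10 genes carry, within the 300 bases around the RefSeq start (250 before to 50 after, build GRCm38.p6), the core of the C/EBP-ATF response element, TGATGNAA on either strand. All 10 genes matched the RefSeq promoter table, Gdf15 and Psat1 with 2 starts each. The starts used for Atf3 and Psat1 lie well inside the gene spans given below, and the upstream ends of those spans were not searched. The core occurs in 1304 of 32851 mouse promoters of the same length, or 3.97%. Fgf21 has it on the opposite strand 139 to 132 bases before its start, Atf3 at 110 to 103 bases before, and Chac1 at 193 to 186 bases before. The promoters of these 3 genes are printed whole because the liver results turn on them. Each reads 5′ to 3′ in the direction of transcription, with the core in capitals.
Fgf21, chr7:45615441-45615740, minus strand: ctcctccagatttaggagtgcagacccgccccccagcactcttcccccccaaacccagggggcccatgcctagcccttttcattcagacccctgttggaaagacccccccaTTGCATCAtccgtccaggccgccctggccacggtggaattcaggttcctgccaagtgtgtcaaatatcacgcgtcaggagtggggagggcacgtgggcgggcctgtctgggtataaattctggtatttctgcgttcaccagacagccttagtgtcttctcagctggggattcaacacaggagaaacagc
Atf3, chr1:191183284-191183583, minus strand: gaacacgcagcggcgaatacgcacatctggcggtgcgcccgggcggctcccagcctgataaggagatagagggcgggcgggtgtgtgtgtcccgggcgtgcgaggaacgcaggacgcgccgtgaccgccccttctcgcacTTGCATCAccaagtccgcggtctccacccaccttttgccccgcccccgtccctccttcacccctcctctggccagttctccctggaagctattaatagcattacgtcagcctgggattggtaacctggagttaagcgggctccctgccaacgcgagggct
Chac1, chr2:119350992-119351291, plus strand: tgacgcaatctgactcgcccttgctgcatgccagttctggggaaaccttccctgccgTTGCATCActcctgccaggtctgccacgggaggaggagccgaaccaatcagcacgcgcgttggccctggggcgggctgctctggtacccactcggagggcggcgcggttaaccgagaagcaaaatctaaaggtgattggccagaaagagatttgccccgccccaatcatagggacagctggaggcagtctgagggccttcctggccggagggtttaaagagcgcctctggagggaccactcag
Asns and Trib3 are given as the core with 10 bases on each side. In Asns the core lies 23 to 16 bases before the start and on the strand of transcription, and in Trib3 it lies 14 to 21 bases after the start on the opposite strand.
Asns, chr6:7693215-7693242, minus strand: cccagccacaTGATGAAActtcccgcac
Trib3, chr2:152344029-152344056, minus strand: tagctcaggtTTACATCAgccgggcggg
The CRE palindrome TGACGTCA was in none of the 10 genes and in 1.79% of all promoters. The endoplasmic reticulum stress element, CCAAT and CCACG with 9 bases of any kind between them, was in none of the 10 and in 0.119% of all promoters. A match of letters is not evidence of binding.

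**Figure D1:**
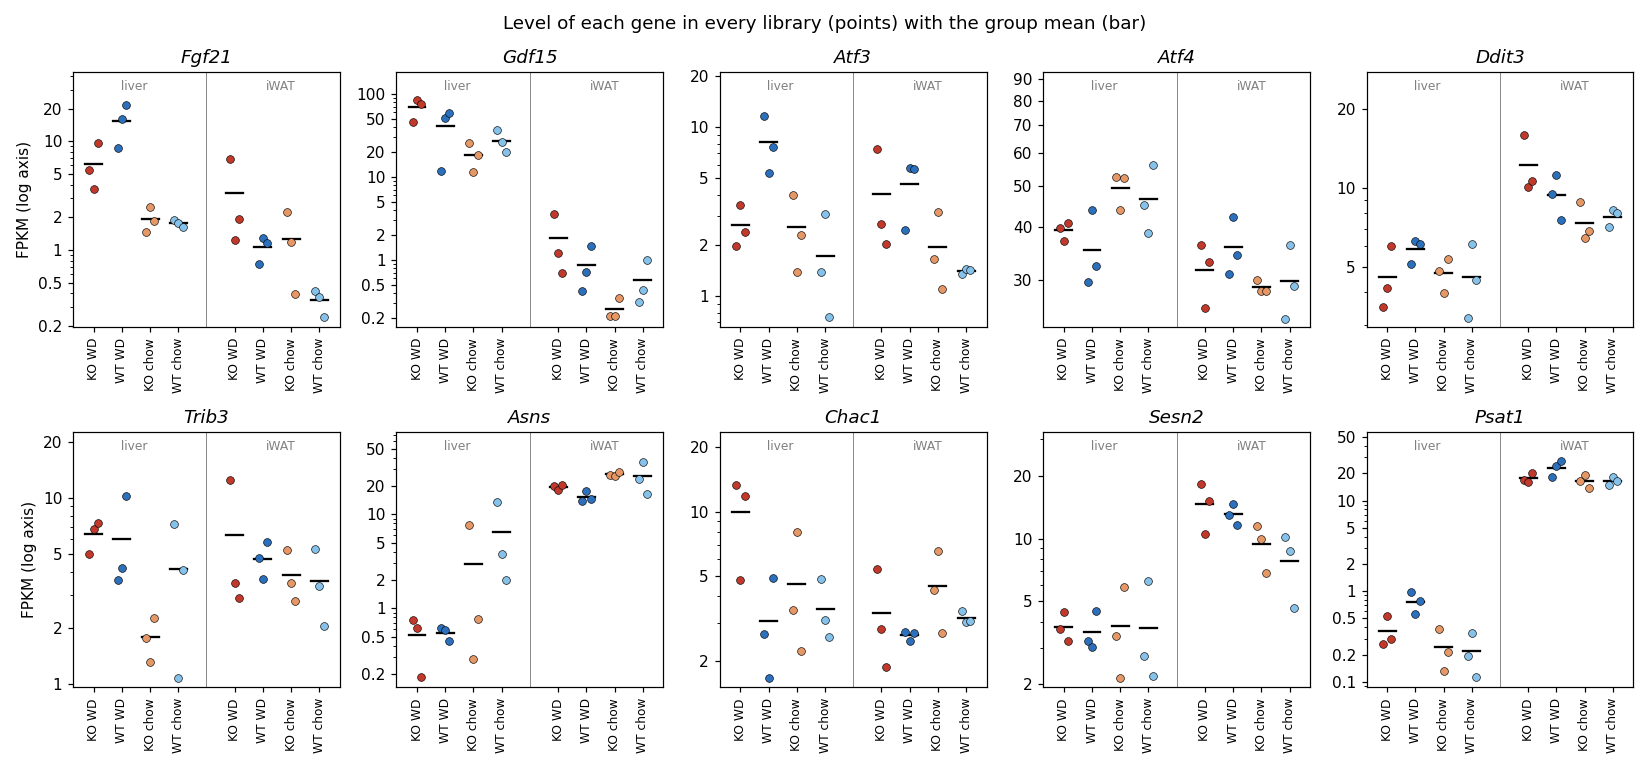
FPKM of the 10 genes in each library (points, log axis) and the mean of each group of 3 mice (bars), with KO left of WT and WD left of chow, for liver and iWAT. Fgf21 is highest in WT livers on WD, at 8.64 to 21.8 FPKM, and Gdf15 is 11.6 to 85.8 FPKM in liver and at most 3.56 FPKM in iWAT.

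Fgf21 rose on the Western diet in WT livers, and on that diet it was lower in livers labelled KO than in livers labelled WT. The gene (ENSMUSG00000030827) lies on the minus strand of chr7:45613886-45615490 in mm10. Fgf21 measured 5.42, 3.63 and 9.58 FPKM in KO livers on WD, against 8.64, 16.1 and 21.8 FPKM in WT livers on WD. The highest KO liver on WD stood above the lowest WT liver on WD, so the ranges overlapped by that 1 pair. On chow, Fgf21 measured 1.47, 2.50 and 1.84 FPKM in KO livers, against 1.89, 1.77 and 1.62 FPKM in WT livers, with overlapping ranges. All 3 livers on WD exceeded all 3 livers on chow within each genotype. The diet difference in WT livers was 2.50 ± 0.33 on the log2(FPKM + 1) scale (adjusted p = 0.00151, limma), from means of 15.5 ± 6.62 FPKM on WD and 1.76 ± 0.133 FPKM on chow. In KO livers the same difference was 1.23 ± 0.33 (adjusted p = 0.148, limma), from 6.21 ± 3.05 FPKM on WD and 1.94 ± 0.523 FPKM on chow. DESeq2 on recovered reads called this KO difference (adjusted p = 0.00695). On WD, KO against WT gave -1.19 ± 0.33 (adjusted p = 0.0305, limma), and on chow 0.08 ± 0.33 (adjusted p = 0.970, limma). The interaction, the diet difference in KO minus that in WT, was -1.27 ± 0.47 and did not pass (adjusted p = 0.227, limma). The WD comparison of genotypes and the diet comparison in WT share the 3 WT livers on WD.

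The call of Fgf21 between genotypes on WD rested on single libraries. It ended without WT liver 2 (-1.13, adjusted p = 0.0700, limma), WT liver 3 (-0.92, 0.106), KO liver 1 (-1.15, 0.0871) or KO liver 2 (-0.92, 0.0969) of the WD groups, and without the 2 livers high in acinar genes (-1.13, 0.0873). The authors' deposited table gives -1.36 with an adjusted p of 0.00655 for the same comparison. The diet difference in WT livers passed in each of the 11 other settings and each of the 6 fits without a library.

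In iWAT, Fgf21 was read from 6 to 126 reads a library, and no comparison of genotype or diet passed for it there. It measured 6.87, 1.23 and 1.93 FPKM in KO iWAT on WD, against 0.736, 1.29 and 1.16 FPKM in WT iWAT on WD. On chow it measured 2.23, 1.18 and 0.391 FPKM in KO iWAT, against 0.418, 0.372 and 0.244 FPKM in WT iWAT. KO means were the higher on both diets, and the ranges overlapped on both. KO against WT was 0.86 ± 0.43 on WD (adjusted p = 0.316, limma) and 0.67 ± 0.43 on chow (adjusted p = 0.939, limma). The authors' deposited tables list 1.68 on WD with an adjusted p of 0.125 and 1.89 on chow with an adjusted p of 0.515. Beside these values, the markers of brown or beige adipocytes summed to 1812, 1929 and 583 FPKM in KO iWAT on WD, against 161, 150 and 19.8 FPKM in WT iWAT on WD. On chow the sums were 886, 642 and 622 FPKM in KO iWAT, against 136, 145 and 137 FPKM in WT iWAT. Their part in Fgf21 was not tested.

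Gdf15 was mainly a liver transcript in these data, and by diet its values separated in KO livers and overlapped in WT livers. The gene (ENSMUSG00000038508) lies on the minus strand of chr8:70629393-70632456. Gdf15 measured 46.2, 85.8 and 76.4 FPKM in KO livers on WD, against 11.7, 52.0 and 58.9 FPKM in WT livers on WD. On chow it measured 25.6, 11.6 and 18.5 FPKM in KO livers, against 36.4, 26.1 and 19.9 FPKM in WT livers. KO livers on WD all stood above KO livers on chow, while WT liver 1 on WD had the second lowest value of the 12 livers. The diet difference was 1.86 ± 0.54 in KO livers (adjusted p = 0.163, limma) and 0.31 ± 0.54 in WT livers (adjusted p = 0.734, limma). Neither passed over all genes by limma, and DESeq2 on recovered reads called the KO difference (1.89, adjusted p = 0.00429). Genotypes differed by 0.99 ± 0.54 on WD (adjusted p = 0.225, limma) and by -0.56 ± 0.54 on chow (adjusted p = 0.872, limma), and the interaction was 1.56 ± 0.77 (adjusted p = 0.344, limma).

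In iWAT, Gdf15 measured 3.56, 1.21 and 0.685 FPKM in KO on WD, against 0.425, 0.711 and 1.46 FPKM in WT on WD. On chow it was 0.208, 0.210 and 0.347 FPKM in KO, against 0.310, 0.430 and 0.982 FPKM in WT. KO iWAT on WD stood above KO iWAT on chow in every library, with a difference of 1.04 ± 0.34 that did not pass (adjusted p = 0.408, limma). Without the 2 iWAT samples high in muscle genes that difference was 0.62 (adjusted p = 0.703, limma). Ordered by mean, Fgf21 ran from WT livers on WD, KO livers on WD and KO iWAT on WD down to WT iWAT on chow at 0.345 FPKM. The neighbours in that order overlapped in range except the lowest pair, WT iWAT on WD at 0.736 to 1.29 FPKM and WT iWAT on chow at 0.244 to 0.418 FPKM. For Gdf15 the 4 liver groups ranked above the 4 iWAT groups, and the only neighbours whose ranges did not meet were KO livers on chow and KO iWAT on WD.

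Atf3 is a stress-induced transcription factor that ATF4 and other pathways switch on. Its values separated the genotypes in livers on WD. That held for 1 of 9 tested members, beside 42.9% of all genes. The gene (ENSMUSG00000026628) spans chr1:191170296-191218039 on the minus strand. Atf3 measured 1.99, 3.48 and 2.41 FPKM in KO livers on WD, against 11.6, 5.38 and 7.69 FPKM in WT livers on WD. Each KO liver on WD stood below each WT liver on WD. On chow it measured 3.97, 1.40 and 2.29 FPKM in KO livers, against 1.40, 3.06 and 0.753 FPKM in WT livers, with overlap. Atf3 fell by 1.31 ± 0.36 in KO against WT livers on WD (adjusted p = 0.0293, limma) and rose by 1.78 ± 0.36 on WD against chow in WT livers (adjusted p = 0.00884, limma). In KO livers the diet difference was 0.07 ± 0.36 (adjusted p = 0.949, limma), and the interaction of -1.71 ± 0.51 did not pass (adjusted p = 0.160, limma). DESeq2 on recovered reads called the Atf3 interaction (adjusted p = 0.0420). The genotype call ended without WT liver 1 (-1.06, adjusted p = 0.119, limma), WT liver 3 (-1.33, 0.0736), KO liver 1 (-1.18, 0.0957) or KO liver 3 (-1.28, 0.0806) of the WD groups. It held without the 2 livers high in acinar genes (-1.55, adjusted p = 0.0208, limma).

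Markers of other cells moved in the same livers as Atf3 and Fgf21. Macrophage markers summed to 274 to 329 FPKM in KO livers on WD and 701 to 1531 FPKM in WT livers on WD, against 187 to 425 FPKM on chow in both genotypes. Lyz2, a macrophage lysozyme, was 63.1, 56.8 and 51.5 FPKM in KO livers on WD, against 628, 233 and 764 FPKM in WT livers on WD. Fibroblast and stellate cell markers summed to 39.7 to 45.4 FPKM in KO and 130 to 211 FPKM in WT livers on WD, and bile duct markers, mostly Spp1, which is on the macrophage list too, to 17.9 to 31.8 FPKM in KO and 147 to 251 FPKM in WT. Hepatocyte markers summed to 33789 to 41656 FPKM in KO and 24675 to 31820 FPKM in WT livers on WD. The part of these cells in the Atf3 and Fgf21 differences was not tested. In iWAT, Atf3 measured 7.44, 2.69 and 2.03 FPKM in KO on WD, against 2.48, 5.77 and 5.66 FPKM in WT on WD, and 1.66, 3.14 and 1.10 FPKM in KO on chow, against 1.35, 1.46 and 1.44 FPKM in WT on chow. WT iWAT on WD stood above WT iWAT on chow in every library (1.16 ± 0.40, adjusted p = 0.142, limma), and the difference passed without the 2 iWAT samples high in muscle genes (1.47, adjusted p = 0.0460).

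Atf4 and Ddit3 were called in no comparison of genotype or diet by limma in the reported setting, in either tissue. Atf4 (ENSMUSG00000042406, chr15:80255184-80257541, plus strand), the central factor of the response, measured 39.8, 37.1 and 41.0 FPKM in KO livers on WD, against 29.6, 44.0 and 32.4 FPKM in WT livers on WD. Its chow values were 52.6, 44.0 and 52.4 FPKM in KO livers, against 45.2, 38.8 and 56.2 FPKM in WT livers. Its 12 livers spanned 1.90-fold and its 12 iWAT samples 1.76-fold, the narrowest range of the 10 genes in each tissue. In the KO livers all 3 values on WD lay below all 3 on chow, with a difference of -0.33 ± 0.16 (adjusted p = 0.366, limma), and in WT livers the difference was -0.40 ± 0.16 (adjusted p = 0.119, limma). The WT value turned to 0.01 under scaling to equal totals, and it passed at -0.56 without the 2 livers high in acinar genes (adjusted p = 0.0447, limma) and without WT liver 2 on WD (-0.56, adjusted p = 0.0317). Ddit3 (ENSMUSG00000025408, chr10:127290774-127296288, plus strand), which encodes the pro-apoptotic factor CHOP, ranged from 3.19 to 6.26 FPKM over the 12 livers. It differed by -0.32 ± 0.21 in KO against WT livers on WD (adjusted p = 0.311, limma). With diet in WT livers it differed by 0.32 ± 0.21 (adjusted p = 0.305, limma). In iWAT it measured 16.0, 10.1 and 10.6 FPKM in KO on WD, against 9.50, 11.2 and 7.55 FPKM in WT on WD. On chow it was 8.83, 6.42 and 6.87 FPKM in KO iWAT, against 7.07, 8.21 and 8.04 FPKM in WT iWAT. KO iWAT on WD stood above KO iWAT on chow in every library (0.64 ± 0.19, adjusted p = 0.370, limma). Exons of Ddit3 share 68 bases, 3.97% of its exonic length, with Mars on the opposite strand, and 13 bases with Gm4189, also on the opposite strand. The sources used here do not say whether counting used strand, so reads in those stretches cannot be assigned to either gene. On the same strand, Ddit3 shares 105 bases, 6.13%, with the second Ddit3 identifier. These are 100% of the exonic bases of that identifier, so its value of 0 does not show that it was not expressed.

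Trib3 (ENSMUSG00000032715, chr2:152337422-152344032, minus strand), a pseudokinase that binds ATF4 and CHOP and restrains them, was called in no comparison of genotype or diet by limma in the reported setting. It measured 5.0, 6.78 and 7.29 FPKM in KO livers on WD, against 3.63, 4.20 and 10.3 FPKM in WT livers on WD. On chow it measured 1.76, 1.31 and 2.26 FPKM in KO livers, against 7.25, 1.08 and 4.08 FPKM in WT livers. KO livers separated by diet and WT livers did not, as the WT values on chow ran from 1.08 to 7.25 FPKM. The diet difference was 1.41 ± 0.46 in KO livers (adjusted p = 0.201, limma) and 0.55 ± 0.46 in WT livers (adjusted p = 0.451, limma), with an interaction of 0.86 ± 0.66 (adjusted p = 0.545, limma). DESeq2 on recovered reads called the KO difference (1.83, adjusted p = 0.0278). In iWAT, Trib3 measured 12.5, 3.47 and 2.88 FPKM in KO on WD, against 4.73, 3.66 and 5.76 FPKM in WT on WD, and 2.04 to 5.28 FPKM on chow over both genotypes.

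Chac1 (ENSMUSG00000027313, chr2:119351229-119354381, plus strand), which cleaves glutathione, was the one member with a higher mean in KO than in WT livers on WD that came near the threshold. It measured 13.3, 4.76 and 11.8 FPKM in KO livers on WD, against 2.66, 1.66 and 4.87 FPKM in WT livers on WD. KO liver 2 and WT liver 3 were almost level, and the other KO livers stood well above the WT livers. Chac1 on chow was 3.47, 8.05 and 2.22 FPKM in KO livers, against 4.83, 3.09 and 2.58 FPKM in WT livers. KO against WT on WD was 1.40 ± 0.45 (adjusted p = 0.0523, limma). It passed by DESeq2 on recovered reads (1.61, adjusted p = 0.0143), in limma without KO liver 2 on WD (1.81, adjusted p = 0.0265), and in the authors' deposited table (1.66, adjusted p = 0.00186). The promoters of Chac1, Atf3 and Fgf21 above hold the core in the same letters. In KO against WT livers on WD the mean of Chac1 was higher without passing, while Atf3 and Fgf21 fell. The part of the core in these differences was not tested. In iWAT, Chac1 ranged from 1.87 to 6.51 FPKM. Sesn2 (ENSMUSG00000028893, chr4:132492032-132510501, minus strand), which senses leucine and restrains mTORC1, ranged from 2.15 to 6.27 FPKM over the 12 livers. In iWAT it measured 18.2, 10.5 and 15.2 FPKM in KO on WD, against 13.0, 14.6 and 11.6 FPKM in WT on WD. On chow it was 11.5, 9.91 and 6.86 FPKM in KO iWAT, against 10.2, 8.69 and 4.64 FPKM in WT iWAT. The diet difference of Sesn2 was 0.58 ± 0.28 in KO iWAT (adjusted p = 0.539, limma) and 0.72 ± 0.28 in WT iWAT (adjusted p = 0.180, limma), where the groups did not overlap.

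Asns (ENSMUSG00000029752, chr6:7675169-7693254, minus strand), asparagine synthetase, was below 1 FPKM in every liver on WD and uneven on chow. It measured 0.754, 0.618 and 0.187 FPKM in KO livers on WD, against 0.614, 0.589 and 0.452 FPKM in WT livers on WD. On chow it measured 7.76, 0.290 and 0.760 FPKM in KO livers, against 13.6, 3.78 and 1.99 FPKM in WT livers. All WT livers on WD stood below all WT livers on chow, and KO livers overlapped between diets. The diet difference was -0.85 ± 0.70 in KO livers (adjusted p = 0.590, limma) and -1.94 ± 0.70 in WT livers (adjusted p = 0.0776, limma). DESeq2 on recovered reads called the WT difference (-3.49, adjusted p = 0.0105). The KO liver on chow with 7.76 FPKM of Asns had an acinar sum of 2113 FPKM. WT liver 1 on chow, with 13.6 FPKM of Asns, had an acinar sum of 7.41 FPKM. WT liver 2 on WD, with an acinar sum of 1630 FPKM, had 0.589 FPKM of Asns. The part of acinar cells in the Asns values was not tested. In iWAT, Asns was far higher, at 20.0, 18.3 and 20.7 FPKM in KO on WD, against 13.8, 17.5 and 14.7 FPKM in WT on WD. The genotypes did not overlap there, yet the difference of 0.34 ± 0.22 did not pass (adjusted p = 0.453, limma), and the authors' deposited table lists 0.38 with an adjusted p of 0.104. On chow, iWAT Asns was 26.3, 25.7 and 28.5 FPKM in KO, against 23.6, 36.0 and 16.4 FPKM in WT. WD was lower than chow by mean in both genotypes, with differences of -0.43 ± 0.22 in KO (adjusted p = 0.567, limma) and -0.62 ± 0.22 in WT (adjusted p = 0.150, limma).

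Psat1 (ENSMUSG00000024640, chr19:15904678-15947337, minus strand), an enzyme of serine synthesis, was scarce in liver, with 6 to 67 reads a library. It measured 0.261, 0.535 and 0.300 FPKM in KO livers on WD, against 0.980, 0.553 and 0.770 FPKM in WT livers on WD. Chow livers had 0.384, 0.131 and 0.214 FPKM in KO, against 0.192, 0.342 and 0.114 FPKM in WT. WT livers on WD were the highest group, above KO livers on WD and above WT livers on chow in every library. With no minimum level, the diet difference in WT livers passed (0.54 ± 0.13, adjusted p = 0.0338, limma) and KO against WT on WD did not (-0.37 ± 0.13, adjusted p = 0.110, limma). In iWAT, Psat1 measured 17.0, 16.2 and 20.4 FPKM in KO on WD, against 18.2, 24.1 and 27.1 FPKM in WT on WD, and 16.3, 19.3 and 13.8 FPKM in KO on chow, against 14.8, 18.1 and 16.4 FPKM in WT on chow. WT iWAT on WD stood above WT iWAT on chow in every library, by a narrow margin, with a difference of 0.45 ± 0.16 (adjusted p = 0.160, limma).

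**Figure D2:**
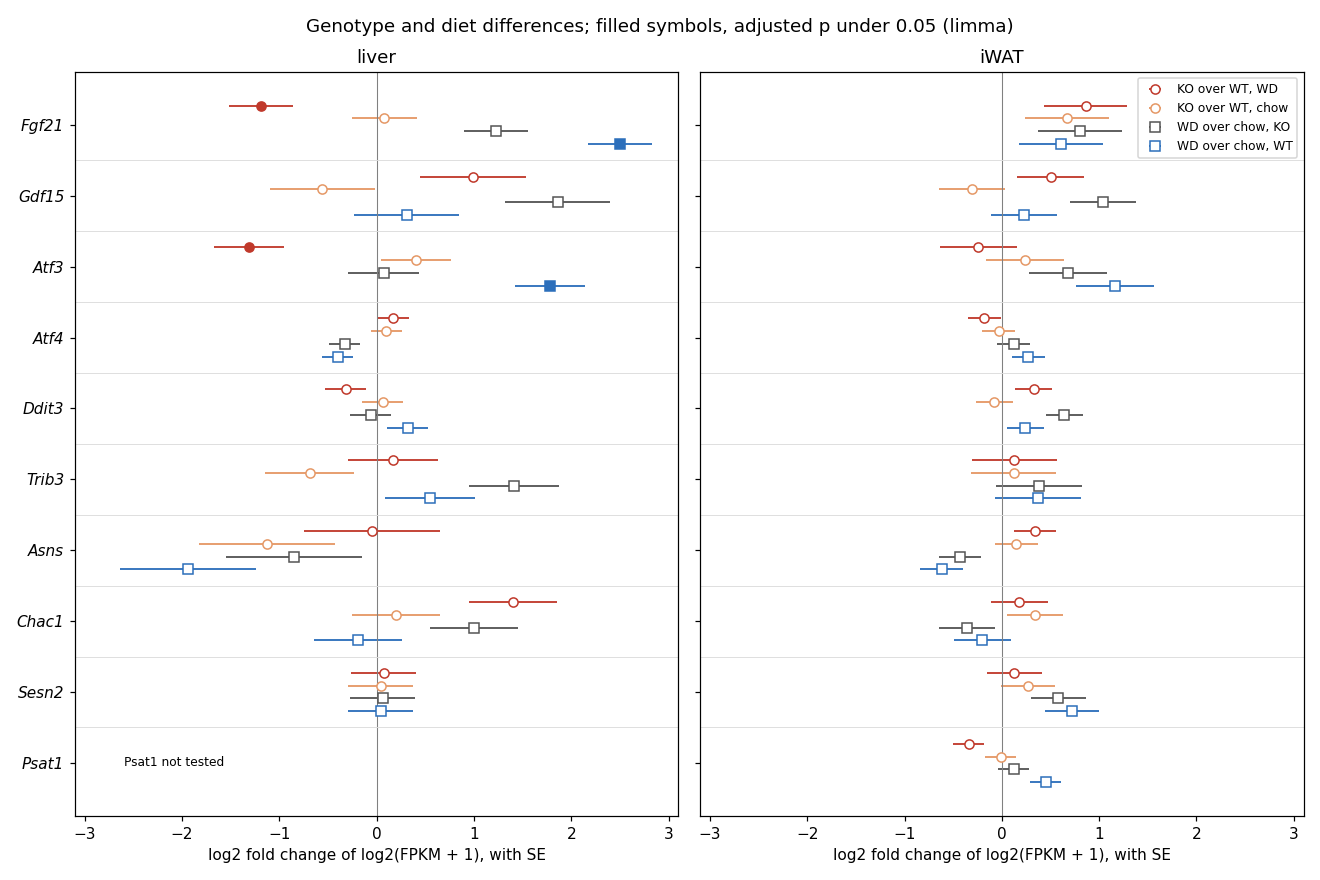
Log2 differences on the log2(FPKM + 1) scale with their SE for the 10 genes in each comparison of genotypes and of diets, by tissue, with filled symbols where the adjusted p is under 0.05. Fgf21 and Atf3 carry the 4 calls, at -1.19 and -1.31 for KO against WT livers on WD and at 2.50 and 1.78 for WD against chow in WT livers.

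Counted over the members, KO against WT livers on WD called 0 higher and 2 lower of the 9 tested, beside 21.0% of all 14019 genes called in either direction and 10.4% called lower. WD against chow in WT livers called 2 higher and 0 lower of 9, beside 19.2% of all genes and 9.72% called higher. Both shares are near what the whole table gives at these counts. In KO livers, WD against chow called 0 of 9 by limma and by edgeR, beside 0.421% of all genes called by limma. DESeq2 called 3 members there and 632 genes in all. An unadjusted limma p under 0.05 held for 3 members and for 2152 of all 14019 genes. The interaction in liver called 0 of 9 by limma and by edgeR, beside 0.549% of all genes called by limma. DESeq2 called 1 member for it and 516 genes in all. An unadjusted limma p under 0.05 held for 2 members and for 2305 of all 14019 genes. KO against WT livers on chow called 0 of 9 by limma, edgeR and DESeq2, with 0 at an unadjusted p under 0.05, and limma called 0% of all genes. The members' differences there ran from -1.13 to 0.40.

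In iWAT no member was called by limma in the reported setting, or by edgeR, in any comparison of genotype or diet. KO against WT on WD had 0 of 10 by limma, edgeR and DESeq2, also at an unadjusted p under 0.05, beside 4.25% of 14685 genes called. KO against WT on chow had 0 of 10 by limma, edgeR and DESeq2, also at an unadjusted p under 0.05, beside 0% of genes called. WD against chow in KO iWAT had 0 of 10 by limma and edgeR, beside 0% of genes called by limma. DESeq2 called 1 member there, and its share over all genes is not given here. An unadjusted limma p under 0.05 held for 2 members and for 1390 of 14685 genes. WD against chow in WT iWAT had 0 of 10 by limma and edgeR, beside 2.12% of genes called by limma. DESeq2 called 2 members there, and its share over all genes is not given here. An unadjusted limma p under 0.05 held for 4 members and for 3109 of 14685 genes. The interaction in iWAT had 0 of 10 by limma, edgeR and DESeq2, also at an unadjusted p under 0.05, beside 0% of genes called. The median difference of the 10 was 0.48 in KO iWAT and 0.32 in WT iWAT for WD against chow, beside medians over all genes of 0.02 in KO and 0.01 in WT. Groups did not overlap between diets for 3 of 10 members in KO iWAT, beside 15.1% of all genes, and for 5 of 10 in WT iWAT, beside 27.3% of all genes. In liver the same counts for WD against chow were 4 of 9 in KO, beside 26.8% of all genes, and 3 of 9 in WT, beside 34.4%. For KO against WT on WD they were 1 of 9 in liver, beside 42.9%, and 1 of 10 in iWAT, beside 25.0%.

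**Figure D3:**
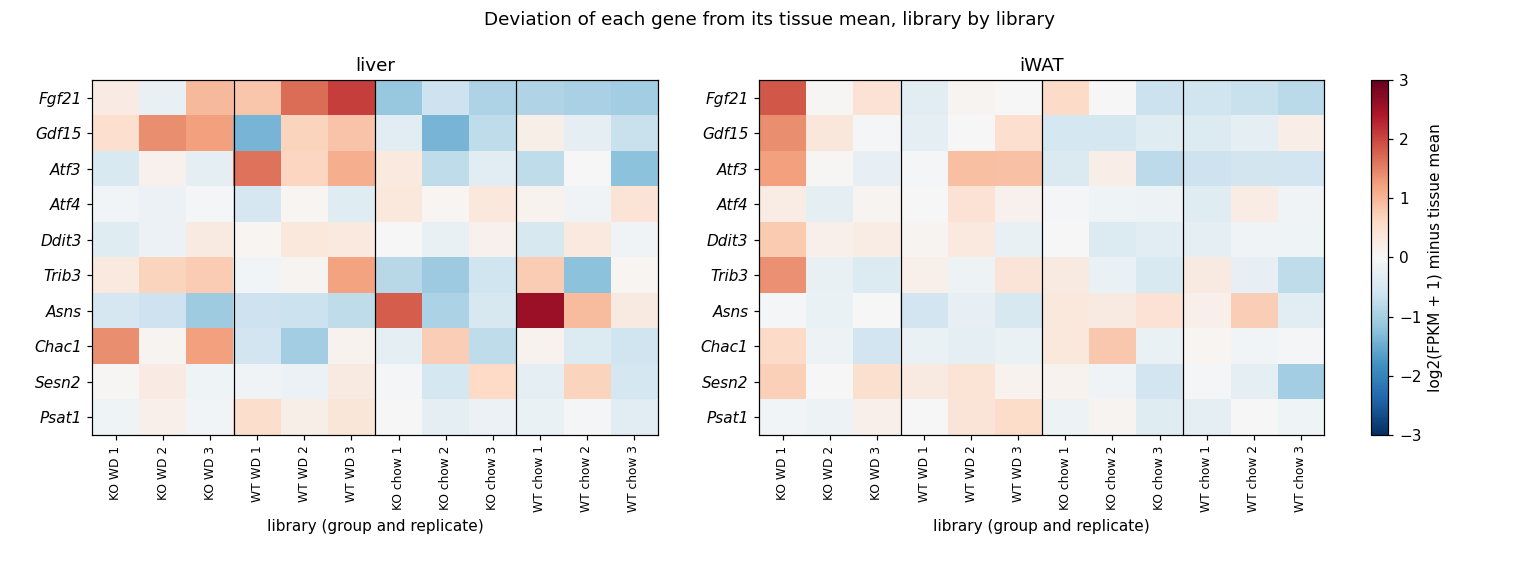
Colour gives log2(FPKM + 1) of each gene in each library minus that gene's mean over the 12 libraries of the tissue, with libraries in columns by group and genes down the side. The first KO iWAT library on WD is the highest of the 12 for 6 members.

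A single iWAT library held many of the highest values. KO iWAT 1 on WD was the highest of the 12 iWAT libraries for Fgf21 (6.87 FPKM), Gdf15 (3.56), Atf3 (7.44), Ddit3 (16.0), Trib3 (12.5) and Sesn2 (18.2), and the mean rank of the 10 members in it was 2.40, where rank 1 is the highest. No other iWAT library led in more than 1 member. In liver the leading values were spread out, and no library led in more than 2 members. Skeletal muscle markers summed to 1125 FPKM in KO iWAT 1 on WD, and its part in these values was not tested. WT iWAT 1 on WD, with a muscle sum of 3896 FPKM, led in 0 members and had a mean rank of 6.70.

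Between the tissues, WT mice on chow showed 3 members higher and 4 lower in liver than in iWAT of 10 tested, beside 64.0% of 15254 genes called in that contrast, 32.5% higher and 31.5% lower. The tissues did not overlap for 6 of 10 members, beside 64.7% of all genes. Gdf15 averaged 27.5 ± 8.34 FPKM in liver against 0.574 FPKM in iWAT (4.16 ± 0.47, adjusted p = 3.05e-07, limma). Fgf21 was higher in liver by 1.04 ± 0.40 (adjusted p = 0.0299, limma), a call that ended in each of the 6 fits without a library (0.98 to 1.08, adjusted p 0.0516 to 0.0741). The amino acid enzymes went the other way, with Psat1 at 0.216 FPKM in liver against 16.4 FPKM in iWAT (-3.84 ± 0.15, adjusted p = 2.29e-14, limma) and Asns at 6.46 FPKM in liver against 25.3 FPKM in iWAT (-2.08 ± 0.54, adjusted p = 0.00250, limma). Ddit3 was lower in liver (-0.68 ± 0.20, adjusted p = 0.00629, limma). Sesn2 was also lower in liver (-0.94 ± 0.32, adjusted p = 0.0147, limma), a call that ended in 4 of 6 fits without a library (up to adjusted p = 0.0862). Atf4 was higher in liver by 0.64 ± 0.17 (adjusted p = 0.00325, limma) but turned to -0.38 under scaling to equal totals and -0.08 under quantile normalization. Scaling to equal totals put the median over all genes in this contrast at -0.77. Atf3, Chac1 and Trib3 differed by 0.02 to 0.09 and did not pass. The tissues also differed in the Fgf21 contrasts themselves. KO against WT on WD, liver minus iWAT, called 0 members higher and 1 lower of 10, beside 7.43% of all genes called and 3.31% called lower. WD against chow in WT, liver minus iWAT, called 1 higher and 0 lower of 10, beside 8.44% called and 3.23% called higher. Fgf21 was that member in both, by -2.05 ± 0.57 and 1.89 ± 0.57, in contrasts chosen after the values were seen that ended in 8 and in 11 of 12 fits without a library.

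The other genes of the response, taken from 9 lists of 7 to 20 genes, had calls in both directions. Over all genes, KO against WT livers on WD called 10.6% higher and 10.4% lower, and WD against chow in WT livers called 9.72% higher and 9.49% lower. Of the 20 genes named for KO against WT livers on WD, 6 kept their call in every fit without a library (Shmt2, Slc1a5, Slc38a2, Slc3a2, Aars and Dnaja3), and of the 15 named for WD against chow in WT livers, 7 did (Shmt2, Cth, Slc38a2, Dnaja3, Hspd1, Afg3l2 and Hspa9). Scaling to equal totals ended the calls of Shmt2 (adjusted p = 0.456), Aars (0.113) and Dnaja3 (0.496) for the genotypes and all of those 7 but Slc38a2 for the diets. None of the 11 named for KO against WT iWAT on WD kept its call in every fit without a library. Nor did any of the 3 named for WD against chow in WT iWAT. Among the kinases and other upstream genes, KO against WT livers on WD called 1 higher and 1 lower of 9: Eif2ak1 (HRI) at 11.5 ± 0.735 FPKM in KO and 7.90 ± 1.22 FPKM in WT (0.50 ± 0.13, adjusted p = 0.0234, limma), and Eif2ak3 (PERK) at 4.20 ± 0.706 FPKM in KO and 5.75 ± 0.370 FPKM in WT (-0.38 ± 0.12, adjusted p = 0.0439). The Eif2ak1 call ended under scaling to equal totals (adjusted p = 0.622), and the Eif2ak3 call ended without the 2 livers high in acinar genes. WD against chow called 0 of these 9 in KO livers and 0 in WT livers. In a list of C/EBP factors and other genes of the response, not all of them partners of ATF4, calls went both ways. Cebpb (C/EBPβ) averaged 142 ± 18.8 FPKM in KO and 72.0 ± 2.10 FPKM in WT livers on WD (0.96 ± 0.23, adjusted p = 0.0164, limma). Nupr1, a stress-induced chromatin protein, averaged 0.468 ± 0.106 FPKM in KO and 2.23 ± 0.766 FPKM in WT (-1.11 ± 0.30, adjusted p = 0.0250). These 2 were the only calls among 7. In WT livers both went the other way with diet, Cebpb at -0.83 and Nupr1 at 0.99 for WD against chow, in a comparison that shares the WT livers on WD. The Cebpb calls ended under scaling to equal totals, and the Nupr1 calls ended in 5 of 6 fits without a library for the genotypes and in 4 of 6 for the diets.

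Genes of amino acid supply also split. KO against WT livers on WD called 2 higher and 2 lower of 6 tested genes of amino acid synthesis and one-carbon metabolism. Shmt2, mitochondrial serine hydroxymethyltransferase, rose to 101 ± 4.88 FPKM in KO, against 68.6 ± 2.67 FPKM in WT (0.55 ± 0.09, adjusted p = 0.00359, limma), and Cth, which makes cysteine, to 125 ± 11.6 FPKM in KO, against 74.4 ± 10.3 FPKM in WT (0.74 ± 0.20, adjusted p = 0.0262). Aldh18a1, of proline synthesis (0.743 ± 0.407 FPKM in KO, 1.68 ± 0.190 FPKM in WT), and Mthfd2, of mitochondrial folate metabolism (0.536 ± 0.154 FPKM in KO, 1.33 ± 0.259 FPKM in WT), fell by 0.64 ± 0.18 and 0.60 ± 0.19, at adjusted p = 0.0310 and 0.0458. Of these 4 calls, those of Shmt2 and Cth ended under equal totals, that of Aldh18a1 ended in 7 of 10 other settings and that of Mthfd2 in 4 of 10. Among 6 transporters tested, Slc38a2 (SNAT2) rose to 23.3 ± 4.09 FPKM in KO, against 11.5 ± 0.604 FPKM in WT (0.95 ± 0.15, adjusted p = 0.00311, limma). Slc1a5 (ASCT2) fell to 0.821 ± 0.110 FPKM in KO, against 2.67 ± 0.676 FPKM in WT (-1.0 ± 0.15, adjusted p = 0.00249), and Slc3a2, the heavy chain of the LAT1 and xCT carriers, to 9.32 ± 0.472 FPKM in KO, against 13.8 ± 0.621 FPKM in WT (-0.52 ± 0.09, adjusted p = 0.00582). These 3 transporter calls held in all 11 other settings and in all 6 fits without a library. In WT livers WD against chow, Slc38a2 differed by -1.16 ± 0.15 (adjusted p = 0.00114, limma), Slc1a4 by 1.67 ± 0.45 (adjusted p = 0.0279) and Slc1a5 by 0.53 ± 0.15 (adjusted p = 0.0292). The Slc38a2 call held in all 11 other settings, and those of Slc1a4 and Slc1a5 each ended in 4 of 11. In KO livers the one call among all 9 lists was Slc3a2 at -0.57 ± 0.09 (adjusted p = 0.0334), which ended in 6 of 11 other settings and in all 6 fits without a library. Of 12 tRNA synthetases, Aars (42.8 ± 2.56 FPKM in KO, 25.9 ± 6.14 FPKM in WT) and Mars (26.9 ± 0.492 FPKM in KO, 18.7 ± 4.18 FPKM in WT) rose in KO against WT livers on WD. The Aars call ended under equal totals, and the Mars call ended in 7 of 11 other settings and 5 of 6 fits without a library. With diet in WT livers 0 of the 12 were called, and 5 were called higher under equal totals.

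**Figure D4:**
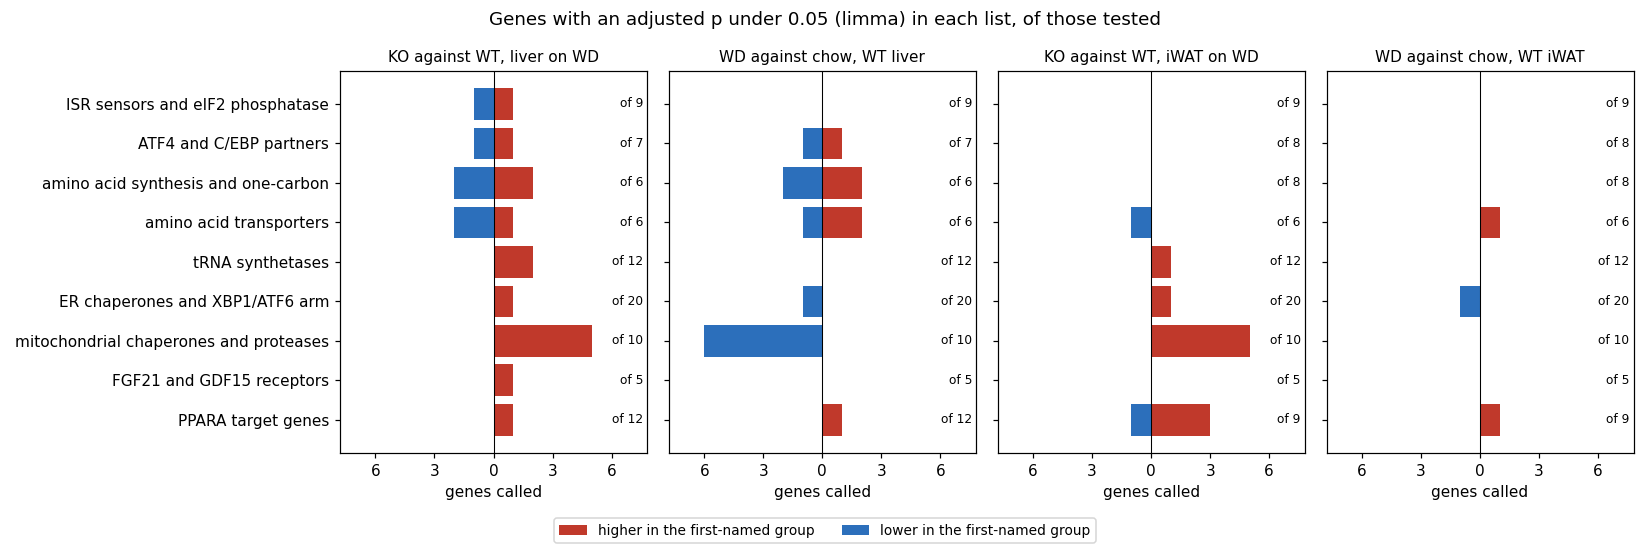
Number of genes of each of the 9 lists called higher (bars to the right) and lower (bars to the left) at adjusted p under 0.05 by limma in 4 comparisons, with the number tested at the right edge of each panel. Mitochondrial chaperones and proteases have 5 of 10 genes called higher in KO against WT livers on WD and 6 of 10 called lower on WD against chow in WT livers, and both counts were 0 under scaling to equal totals.

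Of 20 endoplasmic reticulum genes, 1 rose in KO against WT livers on WD, Edem1 (49.3 ± 2.98 FPKM in KO, 35.7 ± 2.40 FPKM in WT, adjusted p = 0.0476, limma), and 1 fell on WD against chow in WT livers, Herpud1 (115 ± 21.0 FPKM on WD, 231 ± 57.3 FPKM on chow, adjusted p = 0.0269). The Edem1 call ended in 7 of 11 other settings and in all 6 fits without a library, and the Herpud1 call in 4 of 11 and 4 of 6. Of 10 mitochondrial chaperones and proteases, 5 rose and 0 fell in KO against WT livers on WD, beside 10.6% of all genes called higher. The count higher was 0 to 5 over 11 other settings and 1 to 6 without a library, and equal totals gave 0 higher and 2 lower. Dnaja3 averaged 33.7 ± 2.29 FPKM in KO and 22.2 ± 2.74 FPKM in WT (0.58 ± 0.13, adjusted p = 0.0107, limma), and Hspd1, the HSP60 chaperonin, 197 ± 17.0 FPKM in KO and 146 ± 15.5 FPKM in WT (0.44 ± 0.11, adjusted p = 0.0183). Hspa9 and Lonp1 rose by 0.44 ± 0.12 and 0.38 ± 0.12, with adjusted p = 0.0253 and 0.0407. These 4 calls ended under scaling to equal totals and under quantile normalization, and Hspd1, Hspa9 and Lonp1 changed sign under equal totals. On WD against chow in WT livers, 6 of the 10 fell, beside 9.49% of all genes, Dnaja3 by 0.61 ± 0.13, Hspa9 by 0.55 ± 0.12, Hspd1 by 0.52 ± 0.11 and Afg3l2 by 0.51 ± 0.11, and those calls ended under equal totals too, where 2 were called higher and 0 lower. For KO against WT livers on WD the median over all genes was 0.07 as deposited and -0.28 under equal totals. For WD against chow in WT livers it was -0.05 as deposited and 0.27 under equal totals. In iWAT on WD, 5 of the 10 rose in KO against WT and 0 fell, beside 3.20% of all genes called higher. The count was 0 to 7 over other settings, 0 without the 2 iWAT samples high in muscle genes, and 0 in 5 of 6 fits without a library. Lonp1 averaged 50.1 ± 15.5 FPKM in KO and 22.7 ± 1.64 FPKM in WT iWAT (1.06 ± 0.23, adjusted p = 0.0347, limma), and Dnaja3 28.3 ± 8.53 FPKM in KO and 13.3 ± 1.83 FPKM in WT (0.99 ± 0.21, adjusted p = 0.0335). Both calls ended without the 2 iWAT samples high in muscle genes, which leaves 2 mice a group on WD. The brown or beige markers given above were also higher in KO iWAT, and their part was not tested.

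Around FGF21, 1 receptor gene and 1 PPARα target were called in KO against WT livers on WD. Klb, the FGF21 co-receptor, averaged 15.2 ± 1.55 FPKM in KO and 7.22 ± 0.997 FPKM in WT livers on WD (0.98 ± 0.22, adjusted p = 0.0121, limma), opposite in sign to Fgf21. It was the 1 call among 5 receptor genes tested and held in all 11 other settings, with 1 of 6 fits without a library above the threshold (adjusted p = 0.0547). Of 12 PPARα targets, 1 rose in KO against WT livers on WD, beside 10.6% of all genes: Acot1, an acyl-CoA thioesterase, at 11.5 ± 0.940 FPKM in KO and 2.76 ± 0.456 FPKM in WT (1.74 ± 0.42, adjusted p = 0.0168). The median difference of the 12 was 0.63, beside 0.07 over all genes, with 10 above 0 and 2 below. Other settings called 1 to 4 of them higher and 0 to 1 lower. On WD against chow in WT livers 1 rose, Vnn1 (43.1 ± 15.7 FPKM on WD, 14.2 ± 6.77 FPKM on chow, adjusted p = 0.0306, limma), a call that ended in 3 of 11 other settings. The median of the 12 was -0.25 there, beside -0.05 over all genes, with 3 above 0 and 9 below. In iWAT on WD, Pdk4 (159 ± 94.3 FPKM in KO, 23.2 ± 6.56 FPKM in WT), Ehhadh (71.5 ± 47.7 FPKM in KO, 12.4 ± 2.30 FPKM in WT) and Ppara itself (11.5 ± 6.32 FPKM in KO, 1.95 ± 0.463 FPKM in WT) rose, by 2.61 ± 0.49, 2.20 ± 0.42 and 1.94 ± 0.39 (adjusted p = 0.0235, 0.0249 and 0.0285). Each of these 3 calls ended without the 2 iWAT samples high in muscle genes. The other calls in iWAT were few. KO against WT on WD also called the neutral amino acid carrier Slc1a4, which fell by 0.99 ± 0.17, the glycyl-tRNA synthetase Gars (0.48 ± 0.10) and the endoplasmic reticulum co-chaperone Dnajb9 (0.52 ± 0.10), at adjusted p = 0.0215, 0.0314 and 0.0253. The Slc1a4 call ended in 4 of 6 fits without a library, and those of Gars and Dnajb9 in 5 of 6. WD against chow in WT iWAT called Slc1a4 (1.0 ± 0.17, adjusted p = 0.0215, limma), Cpt1a of fatty acid entry into mitochondria (1.22 ± 0.19, 0.0188) and the stress factor Xbp1 (-0.49 ± 0.09, 0.0263). These diet calls of Slc1a4, Cpt1a and Xbp1 each ended in 4 of 6 fits without a library. In other settings they ended in 1 of 11, 1 of 11 and 4 of 11. In the 9 lists 0 genes were called for KO against WT on chow in either tissue, for the interaction in either tissue, or for WD against chow in KO iWAT.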

How the data were processed

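RNA was captured with poly-T beads and sequenced as paired ends, per the labels' protocols. Reads were aligned with HISAT2 2.0.5 to mm10 and DESeq2 1.20.0 was used, per the submitters' processing notes. The sources used here name neither the counter nor its strand setting. The authors deposited FPKM for every gene, and tables of their own comparisons with counts, log2 fold changes, p-values and adjusted p-values for genes at an unadjusted p under 0.05. FPKM are per gene length and per library size, and the deposited values also carry a scaling factor per library (0.769 to 1.07 of the read total in liver, 1.24 to 1.6 in iWAT). Whole reads were recovered from FPKM and gene length for 540911 of 540911 values above 0 (100%, within 0.01 reads), and 64434 of 64434 deposited counts were equal to them. The deposited comparison tables also hold per-sample columns, and 56 columns were not used.

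Tests used limma 3.58.1 (trend and robust, R 4.3.3) on log2(FPKM + 1) over the 12 libraries of a tissue in 4 groups, for 14019 genes in liver and 14685 in iWAT with a mean of at least 0.5 FPKM. Contrasts between tissues used all 24 libraries and 15254 genes. Alternatives were a pseudocount of 0.1, no minimum or a mean of 1 FPKM, 3 other scalings, count models on the recovered reads with DESeq2 1.42.0 and edgeR 4.0.16, a replicate block, fits to 2 groups alone and fits without 1 library. Leaving out the 2 livers high in acinar genes or the 2 iWAT samples high in muscle genes, and the tissue differences of Fgf21, were chosen after seeing the data. Scripts were tested on simulated counts. The members and lists were chosen with earlier results of these data known. Within a list, text names up to 4 called genes with the smallest p. Results for some genes are not reported here. Exons of 9 of the 10 members overlap no other gene's in the annotation used.

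The labels give every group replicates 1 to 3, described as separate mice, and do not say that a number marks a shared litter or day. Same-numbered samples deviated together in KO and WT iWAT on chow (r across genes 0.184, 0.127 and 0.407) and in no other comparison by the rule of every pair over 0.1. Same-numbered pairs were not alone in this, as KO 2 with WT 1 gave 0.258 and KO 1 with WT 2 gave 0.136. The differently numbered pairs that include a sample 3 were negative (-0.327 to -0.189). The block changed no member's call there. Promoters are from RefSeq, GRCm38.p6, whose coordinates are those of mm10.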

Additional observations from a re-analysis of the deposited data

Results flagged for a closer look

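The genotype difference of Fgf21 on WD ran in opposite directions in the 2 tissues. KO against WT was -1.19 in liver and 0.86 in iWAT on the log2(FPKM + 1) scale, and the difference of these differences, liver minus iWAT, was -2.05 ± 0.57 (adjusted p = 0.0349, limma over all 24 libraries, where 7.43% of 15254 genes passed). Fgf21 was the 1 member of 10 that passed. The call ended in 8 of 12 fits without a library (-2.42 to -1.51, adjusted p 0.0206 to 0.0878), among them the fit without KO iWAT 1 on WD (-1.51, 0.0801), the library with the highest Fgf21 in iWAT.

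The diet difference of Fgf21 in WT mice was also larger in liver than in iWAT. WD against chow was 2.50 in liver and 0.61 in iWAT, a difference of 1.89 ± 0.57 (adjusted p = 0.0454, limma), where 8.44% of genes passed and Fgf21 was the 1 member of 10. It ended in 11 of 12 fits without a library (1.61 to 2.23, adjusted p 0.0326 to 0.117). Both contrasts use the same WT samples on WD, were chosen after the values were seen, and treat liver and iWAT as separate mice. On chow the genotype difference between tissues was called for 0 of 10 members by limma, with 0 at an unadjusted p under 0.05, and for 0% of all genes.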

How the results depend on the processing

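Over all results 37 different settings were used, the reported one included, and they gave 638 alternative values over 38 results. Of these values 563 were classed as unchanged, 44 lost the call, 14 gained one, 14 counts moved and 3 values changed sign. A gene's value was classed as unchanged where it kept its side of the threshold and its direction. A count of members was classed as unchanged where it kept within 1.5 times, whatever the directions of its calls. Members called for KO against WT livers on WD (2) were 0 with no minimum level, 1 with 2 groups alone, 1 without the 2 livers high in acinar genes, and 0 to 2 without 1 library; with no minimum, Fgf21 had adjusted p = 0.0543 and Atf3 0.0521, and with 2 groups alone Fgf21 had 0.0890. For WD against chow in WT livers (2) the count was 1 with 2 groups alone, where Atf3 had 0.0511. Counts of 0 became 3 by DESeq2 for WD against chow in KO livers, 1 for the interaction in liver, 1 for KO iWAT by diet, and 2 for WT iWAT by diet, which was 1 without the 2 iWAT samples high in muscle genes. DESeq2 called 632 genes in all for WD against chow in KO livers and 516 for the interaction in liver. The other counts kept their value within 1.5 times. Among them, limma under equal totals called 3 members lower for KO against WT livers on WD. For WD against chow in WT livers it called 3 higher. Atf4 changed sign, with diet in WT livers (0.01, adjusted p = 0.970, equal totals) and between tissues (-0.38, 0.0580, equal totals; -0.08, 0.680, quantile normalization); the cause was not tested. Fgf21 between tissues lost its call in 2 of 9 settings. With a replicate block, Fgf21 (-1.19, adjusted p = 0.0337) and Atf3 (-1.31, 0.0470) kept their calls between genotypes in livers on WD, and 3 members were called for WT livers by diet. With 3 mice a group, few reads limit the precision for Fgf21 in iWAT and Psat1 in liver.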

Other observations

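Over the 12 livers, the genes whose log2(FPKM + 1) ran most like that of Fgf21 were Slc35f2 (Pearson r = 0.959), Natd1 (0.957) and Il22ra1 (0.940), and the genes most like Gdf15 were Med16 (0.873), Psmc4 (0.873) and Drosha (0.870). Over the 12 iWAT samples the genes most like Fgf21 were Mob1b (0.918), Btbd1 (0.894) and Tsfm (0.893), and those most like Gdf15 were Hk1 (0.879), Trim2 (0.845) and Acaa1b (0.844). Fgf21 and Gdf15 themselves gave r = 0.462 in liver and 0.645 in iWAT. Fgf21 and Atf4 gave -0.642 in liver and 0.371 in iWAT, and Fgf21 and Ddit3 gave 0.493 in liver and 0.782 in iWAT. In each case n = 12 libraries that share groups, depth and preparation, in iWAT the library with 6 of the highest member values is among them, and the coefficients are a description.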
